A study of Danio rerio with 24 samples.

Results

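The genes described here encode mitochondrial ribosomal proteins. They were chosen by name, as array rows with 1 gene symbol in the probe annotation that reads mrps or mrpl followed by a digit. The rule found 74 rows for 68 genes, among 19276 genes with 1 symbol. A gene with several rows was represented by the row with the highest mean signal. By symbol, 24 genes are mrps and 44 are mrpl. By the place of their products in mammals, 22 belong to the small and 46 to the large subunit, because the products of mrps18a and mrps30 sit in the large subunit. Of the 68, 43 have a homolog among bacterial ribosomal proteins, and the other 25 are called mitochondria-specific here. These classes were assigned from general knowledge of mammalian mitoribosomes. A current zebrafish gene with the same symbol was found by gene ID for 67 of the 68. The exception, written MRPL52 in the annotation, carries no gene ID.

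Mitochondria have ribosomes of their own, the mitoribosomes, which translate the few proteins encoded by mitochondrial DNA. These proteins are subunits of the respiratory chain and of ATP synthase. The RNA of these ribosomes is made in the mitochondrion, whereas their proteins are encoded in the nucleus, made in the cytosol and imported. A fish egg carries a large maternal store of mitochondria and of mRNA, and during the maternal-to-zygotic transition (MZT) maternal mRNAs are cleared while the embryo starts transcription of its own genome.

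Whole wildtype 5D zebrafish embryos were held from 0.75 hours post fertilization (hpf), the 2-cell stage, in 2 µM TDCIPP, an organophosphate flame retardant, or in 0.1% DMSO, its vehicle. The 4 groups were TDCIPP at 6 hpf, DMSO at 6 hpf, TDCIPP at 2 hpf and DMSO at 2 hpf. The time of 2 hpf lies in the cleavage period before the MZT, and untreated embryos are in the gastrula at 6 hpf. Each group had 3 pools of 25 embryos from triplicate beakers, with 2 Zebrafish Gene 1.0 ST arrays hybridised per pool, and no group differed from another in genotype. The comparisons ask how transcript levels differ between TDCIPP and DMSO embryos of the same age, at 2 hpf and at 6 hpf. The study reports that TDCIPP delayed or arrested epiboly, a movement of early development. TDCIPP embryos at 6 hpf may therefore be at an earlier developmental stage than DMSO embryos. The developmental stage of these pools is not given in the sources used here. The part of a delay in the differences was not tested. Below, stage stands for the time of sampling, 2 or 6 hpf.

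Expression is given as the log2 signal of a transcript cluster, the set of probes that measures a gene, averaged over the 2 arrays of a pool. Signals were normalized so that each array has nearly the same distribution, and a difference is therefore relative to the other clusters. In whole embryos, fewer cells that express a gene and less RNA per cell cannot be told apart. Differences were tested with limma over 61240 transcript clusters, and called at a Benjamini-Hochberg adjusted p under 0.1. Values after ± are SDs over 3 pools. As a check of the time labels, 11 of 11 gastrula genes were higher at 6 hpf than at 2 hpf in TDCIPP and in DMSO embryos. Of 9 maternal oocyte transcripts, 9 were lower at 6 hpf in each treatment, and 8 of them were called. This check does not show that the treatments had reached the same developmental stage. Array medians were 4.472 to 4.543 at 6 hpf and 4.323 to 4.461 at 2 hpf. Of the 68 members, 64 had a mean signal of at least 5, above these medians.

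Most mitochondrial ribosomal protein transcripts were lower at 6 hpf than at 2 hpf. In TDCIPP embryos, 54 of the 68 fell and 4 rose at 6 hpf relative to 2 hpf, against 32.5% and 17.0% of all genes and 19.5% and 20.7% of all transcript clusters. The median change was -0.76 on the log2 scale, or 0.591 times the 2 hpf signal, beside -0.07 over all genes. In DMSO embryos, 51 fell and 6 rose, against 33.0% and 16.1% of all genes. Among all clusters 39.9% were called there, with 19.9% lower and 20.0% higher. The median change was -0.66, or 0.634 times the 2 hpf signal, beside -0.09 over all genes. Signals that were more than 1 log2 unit lower at 6 hpf were found for 22 members in TDCIPP embryos and 21 in DMSO embryos, or 32.4% and 30.9% of the members, against 12.4% and 12.2% of all genes. No member rose by that much.

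The counts were also read among genes with a mean signal of at least 5. Of the 64 such members, 53 fell in TDCIPP embryos and 49 in DMSO embryos, which is 82.8% and 76.6%, against 50.2% and 50.6% of the 11551 genes above that level. The median change of these members was -0.77 in TDCIPP and -0.66 in DMSO embryos, beside -0.24 and -0.25 over those genes. The distance to all genes is therefore smaller at that level. Falls of over 1 log2 unit were not counted there. The p-values of these counts were adjusted over the 25470 clusters above that level. The mean was taken over all 12 pools, so a gene could pass through 1 stage alone. For example, mrpl12 averaged 4.75 in TDCIPP and 4.51 in DMSO pools at 6 hpf, but 5.76 and 5.81 at 2 hpf. The 6 hpf pools lay wholly below the 2 hpf pools for 57 members in TDCIPP and 52 in DMSO embryos, and wholly above them for 3 and 6. Over all genes, the 6 hpf pools were wholly below for 34.5% in TDCIPP and 34.8% in DMSO embryos, and on either side for 54.3% and 52.8%. Over all clusters they were wholly below for 21.4% and 21.6%, and wholly above for 24.5% and 22.6%.

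**Figure D1:**
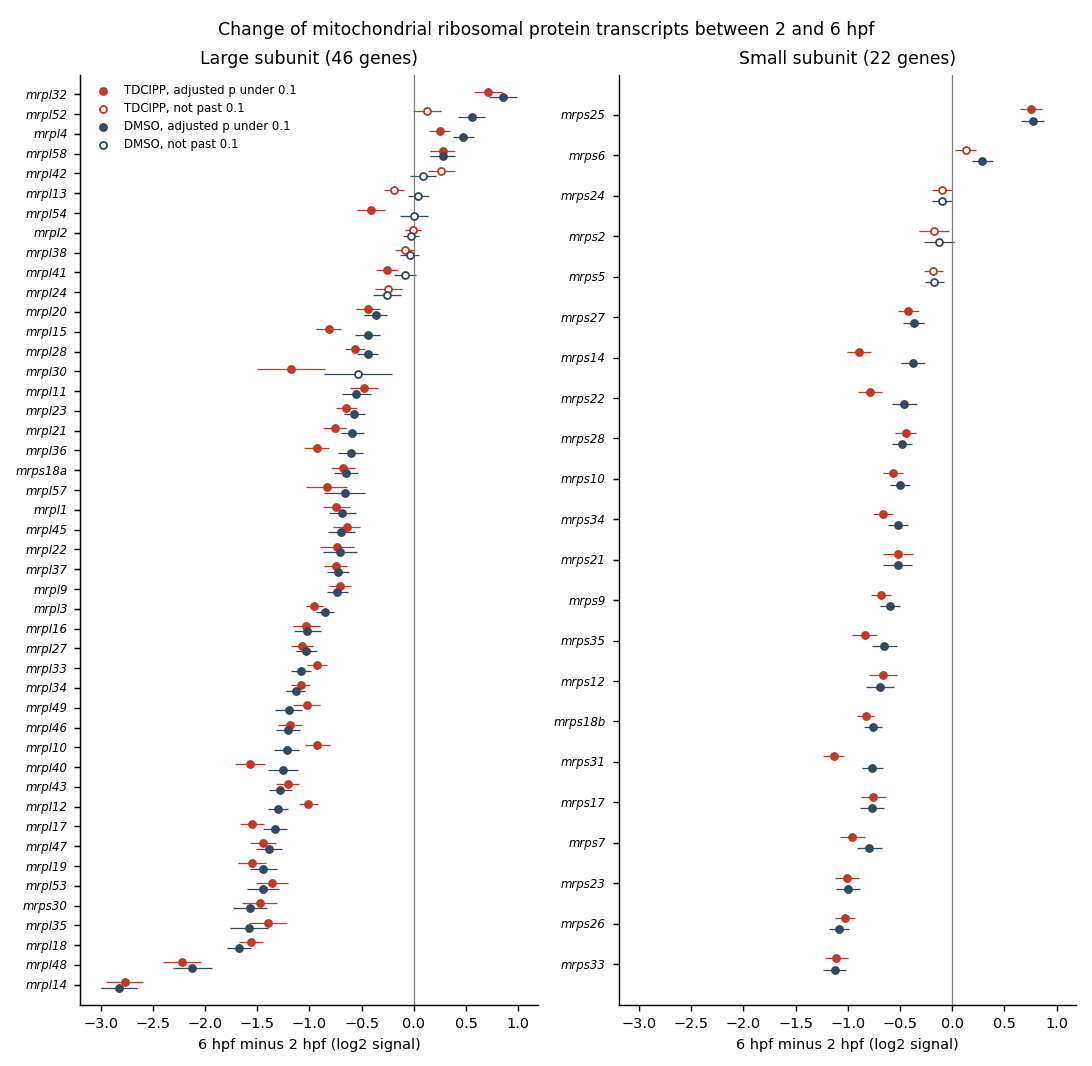
Change between the stages, 6 hpf minus 2 hpf in log2 signal, for each of the 68 members, with large subunit genes on the left and small subunit genes on the right. Points are TDCIPP (red, upper) and DMSO (dark, lower) embryos, bars are standard errors of the limma fit, and filled points passed an adjusted p of 0.1. Most genes lie left of 0 in both treatments, with mrpl14 farthest at -2.77 in TDCIPP and -2.82 in DMSO.

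The largest fall was that of mrpl14, the homolog of bacterial L14 on the face of the large subunit that meets the small one. Its signals at 6 hpf were 5.99, 6.43 and 5.67 in TDCIPP pools and 6.30, 5.73 and 5.84 in DMSO pools. At 2 hpf they were 8.80, 8.88 and 8.73 in TDCIPP and 8.77, 8.74 and 8.82 in DMSO pools. The stages were thus far apart and the treatments overlapped at 6 hpf and at 2 hpf. The change was -2.77 in TDCIPP and -2.82 in DMSO embryos (standard error 0.17, limma adjusted p = 2.09e-08 and 1.67e-08), so that 0.147 and 0.141 of the 2 hpf signal was left.

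Next was mrpl48, a mitochondria-specific protein of the large subunit. It had 5.30, 5.64 and 4.81 in TDCIPP and 5.42, 5.33 and 5.07 in DMSO pools at 6 hpf. At 2 hpf it had 7.39, 7.64 and 7.38 in TDCIPP and 7.25, 7.28 and 7.65 in DMSO pools. All 6 hpf pools were below all 2 hpf pools, with changes of -2.22 in TDCIPP and -2.12 in DMSO embryos (standard error 0.18). The third in DMSO embryos, mrpl18, is the homolog of bacterial L18, which binds 5S rRNA. It averaged 6.44 ± 0.17 in TDCIPP and 6.36 ± 0.15 in DMSO pools at 6 hpf. At 2 hpf it had 7.98, 8.06 and 7.95 in TDCIPP and 7.90, 8.01 and 8.21 in DMSO pools. Its changes were -1.56 and -1.68 in TDCIPP and DMSO embryos (standard error 0.12).

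The other 3 of the 6 largest falls in DMSO embryos also belonged to the large subunit. mrpl35, the homolog of bacterial L35, changed by -1.40 in TDCIPP and -1.58 in DMSO embryos. mrps30, whose symbol is that of a small subunit protein, changed by -1.48 and -1.57. mrpl53, a mitochondria-specific protein, changed by -1.36 and -1.45, from a cluster with low signals, 3.56 ± 0.12 in TDCIPP and 3.48 ± 0.33 in DMSO pools at 6 hpf. Falls of over 1 log2 unit in TDCIPP as well as in DMSO embryos were also measured for mrpl43 (-1.21 and -1.28), mrpl46 (-1.19 and -1.21), mrpl34 (-1.09 and -1.13), mrpl27 (-1.07 and -1.03) and mrpl16 (-1.03 and -1.02), of which mrpl16, mrpl27 and mrpl34 encode homologs of bacterial proteins. In TDCIPP embryos mrpl40 (-1.57), mrpl19 (-1.55), mrpl17 (-1.55) and mrpl47 (-1.45) also fell by more than mrpl35, and mrpl40 by more than mrpl18. Apart from mrpl47, which is also among the genes of functional sites below, these further genes were picked for their values. Each of the 6 members with the largest DMSO falls passed in TDCIPP and in DMSO embryos (limma, largest of the 12 adjusted p-values 2.75e-05, for mrpl35 in TDCIPP), and none of their 6 hpf pools reached the 2 hpf pools.

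Both subunits took part. Among all genes, 32.5% fell and 17.0% rose in TDCIPP embryos, and 33.0% fell and 16.1% rose in DMSO embryos. Among genes with a mean signal of at least 5, 50.2% and 50.6% fell. Of the 22 small subunit genes, 17 fell and 1 rose in TDCIPP embryos, and 17 fell and 2 rose in DMSO embryos, with medians of -0.67 and -0.52. Of the 46 large subunit genes, 37 fell and 3 rose in TDCIPP embryos and 34 fell and 4 rose in DMSO embryos, with medians of -0.83 and -0.70. Falls of over 1 log2 unit were found for 18 large and 4 small subunit genes in TDCIPP and 19 large and 2 small ones in DMSO embryos. The small subunit genes with the largest DMSO falls were mrps33 (-1.11 in TDCIPP and -1.12 in DMSO) and mrps26 (-1.03 and -1.08), both of them mitochondria-specific. This pair was picked for its values. The difference between the subunits was not tested.

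The fall was found among proteins with and without homologs among bacterial ribosomal proteins. The shares of all genes that fell were 32.5% in TDCIPP and 33.0% in DMSO embryos, and 17.0% and 16.1% rose. Of the 43 with a bacterial homolog, 34 fell and 2 rose in TDCIPP and 33 fell and 3 rose in DMSO embryos, with medians of -0.74 and -0.61. Of the 25 mitochondria-specific ones, 20 fell and 2 rose in TDCIPP and 18 fell and 3 rose in DMSO embryos, with medians of -0.83 and -0.69.

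**Figure D2:**
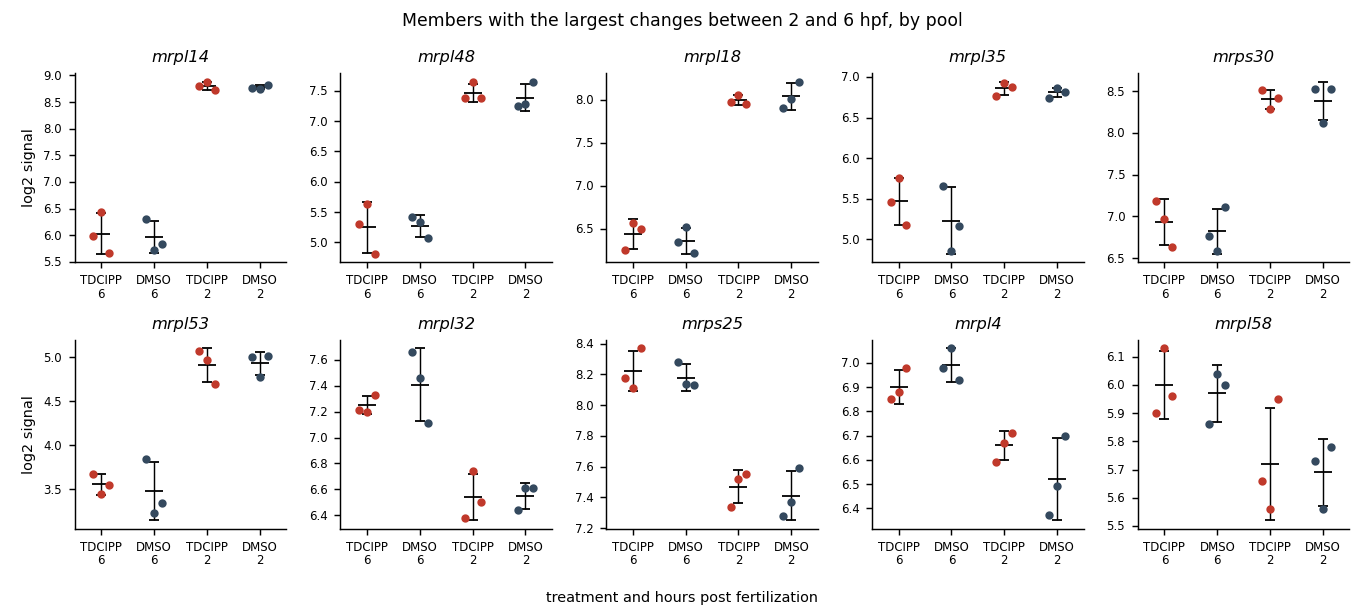
Log2 signal of each pool (points) with the mean and SD of the 3 pools (black) for the 6 members with the largest falls in DMSO and the 4 that rose in both treatments, in TDCIPP (red) and DMSO (dark) embryos at 6 and 2 hpf. Each gene has an axis of its own, since levels of different clusters are not comparable. At 6 hpf all pools of mrpl14 lie below 6.5, and at 2 hpf all lie above 8.7.

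Genes of known functional sites were part of the fall. Falls were called for 32.5% of all genes in TDCIPP and 33.0% in DMSO embryos. Of genes with a mean signal of at least 5, they were called for 50.2% and 50.6%. Each site has only a few genes, so shares were not compared. Near the exit of the nascent peptide tunnel sit the products of mrpl22, mrpl23, mrpl24, mrpl47 and mrpl45, the last of which fixes the mammalian mitoribosome to the inner membrane. Of these 5, 4 fell in TDCIPP and in DMSO embryos, most of all mrpl47 (-1.45 and -1.39). The exception was mrpl24, with -0.24 and -0.26 (limma adjusted p = 0.188 and 0.162). The 3 genes of the flexible stalk that recruits translation factors fell as well, with mrpl12 at -1.01 in TDCIPP and -1.30 in DMSO, mrpl10 at -0.92 and -1.22, and mrpl11 at -0.48 and -0.55. Of the pair of genes whose products shape the decoding region, mrps12 fell (-0.66 in TDCIPP and -0.69 in DMSO), while mrps5 had -0.18 and -0.17 and did not pass. Both paralogs of bacterial S18 on the array rows used fell, mrps18b by 0.83 in TDCIPP and 0.76 in DMSO and mrps18a by 0.68 and 0.65.

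A few members went the other way. The homolog of bacterial L32, mrpl32, whose precursor is matured by the m-AAA protease in yeast and mammals, had 7.21, 7.20 and 7.33 in TDCIPP and 7.66, 7.46 and 7.11 in DMSO pools at 6 hpf. At 2 hpf its pools lay between 6.38 and 6.74 in TDCIPP and between 6.44 and 6.61 in DMSO embryos. Every 6 hpf pool was above every 2 hpf pool. It rose by 0.71 in TDCIPP and 0.85 in DMSO embryos (standard error 0.14, limma adjusted p = 0.000838 and 0.000165).

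The mitochondria-specific mrps25 showed nearly the same size of change. It had 8.18, 8.11 and 8.37 in TDCIPP and 8.28, 8.14 and 8.13 in DMSO pools at 6 hpf, and 7.34, 7.52 and 7.55 in TDCIPP and 7.28, 7.37 and 7.59 in DMSO pools at 2 hpf. The rise was 0.75 in TDCIPP and 0.77 in DMSO embryos (standard error 0.11, limma adjusted p = 7.45e-05 and 5.99e-05). The stages did not overlap.

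Smaller rises were found for mrpl4, the homolog of bacterial L4 that lines the peptide tunnel, and for mrpl58, a peptidyl-tRNA hydrolase that in mammals rescues stalled mitoribosomes. mrpl4 averaged 6.90 ± 0.07 in TDCIPP and 6.99 ± 0.07 in DMSO pools at 6 hpf, and 6.66 ± 0.06 and 6.52 ± 0.17 in TDCIPP and DMSO pools at 2 hpf. Its changes were 0.25 in TDCIPP and 0.47 in DMSO embryos (limma adjusted p = 0.0723 and 0.00162). mrpl58 changed by 0.27 and 0.28 (adjusted p = 0.0897 and 0.0899), and its TDCIPP pools overlapped between the stages. In DMSO embryos its call was lost without replicate 1 or 2 of DMSO at 2 hpf or replicate 2 or 3 of DMSO at 6 hpf (0.2970, 0.2080, 0.2384 and 0.2575), as well as under other settings given with the processing alternatives.

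Called in neither treatment were 8 members, namely mrpl2, mrpl13, mrpl24, mrpl38, mrpl42, mrps2, mrps5 and mrps24. The steadiest of them was mrpl2, the homolog of a core protein of the bacterial peptidyl transferase centre, at 8.51 ± 0.04 in TDCIPP and 8.45 ± 0.01 in DMSO pools at 6 hpf, and 8.52 ± 0.03 and 8.47 ± 0.05 in TDCIPP and DMSO pools at 2 hpf. Its change was -0.01 in TDCIPP and -0.03 in DMSO embryos (standard error 0.08). It was picked for its values.

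The stage changes of the treatments ran side by side. Of the 68 members, 66 changed in the same direction in TDCIPP and DMSO embryos, 51 fell and 4 rose in both, and none was called in opposite directions. The changes had a Pearson correlation of 0.96 over the 68 genes, as a description of genes measured on the same 12 pools with shared normalization, and of 0.98 over all genes. The agreement of the treatments is therefore not particular to the members. The shares of all genes that changed in the same direction or were called in both treatments were not counted. Calls in TDCIPP but not DMSO embryos were falls of mrpl30 (-1.18 against -0.54), mrpl41 (-0.26 against -0.09) and mrpl54 (-0.41 against 0.00). Calls in DMSO but not TDCIPP embryos were rises of mrpl52 (0.12 in TDCIPP against 0.55 in DMSO) and mrps6 (0.13 against 0.29). For none of these 5 did the difference between the treatments pass (limma adjusted p = 0.9998 each).

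Several rows per gene were present for 5 members, which gives a check by other probes. For mrpl47, mrpl53 and mrps22 every row fell in TDCIPP and in DMSO embryos, with the other row at -0.47 and -0.37 for mrpl47, -0.93 and -1.14 for mrpl53, and -1.24 and -0.79 for mrps22. These other rows were dim, with group means of 3.91 to 4.39 for mrpl47, 3.15 to 4.46 for mrpl53 and 3.41 to 4.65 for mrps22. Pools of the stages overlapped in the other row of mrpl53 in TDCIPP and of mrps22 in DMSO embryos. For mrpl20 the row used fell (-0.44 in TDCIPP and -0.37 in DMSO), whereas the other did not pass (-0.15 and -0.05). The 3 rows of mrpl57 disagreed in DMSO embryos. The row used fell (-0.83 in TDCIPP and -0.66 in DMSO), a dimmer one did not pass (-0.29 and -0.10), and the dimmest, with group means of 2.45 to 2.89, had 0.30 in TDCIPP (not past the threshold), and a rise of 0.39 in DMSO. Values identical to those of another tested row were found for 2 member rows. Among them is that of mrps28, whose match is a row without a symbol.

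The genes that assemble and serve the mitoribosome were read beside its proteins. Over all genes, 32.5% fell and 17.0% rose in TDCIPP embryos, and 33.0% fell and 16.1% rose in DMSO embryos. Of genes with a mean signal of at least 5, 50.2% fell in TDCIPP and 50.6% in DMSO embryos. Of 22 genes for assembly and rRNA modification, 16 fell and none rose in TDCIPP embryos, and 17 fell and 1 rose in DMSO embryos (medians -0.77 and -0.77). Among them were trub2, a pseudouridine synthase (-2.43 in TDCIPP and -2.33 in DMSO), and fastkd2 (-2.13 and -2.11), whose products act in mitochondrial RNA granules in mammals. Of 14 translation factors, 12 fell and 1 rose in TDCIPP and 11 fell and 1 rose in DMSO embryos, the fall being largest for mtfmt, the methionyl-tRNA formyltransferase (-1.65 and -1.79), and the rise that of the initiation factor gene mtif3 (0.52 and 0.86). Of 19 genes for charging mitochondrial tRNAs, 10 fell and 2 rose in TDCIPP and in DMSO embryos. The share that fell, 52.6% in each treatment, was above that of all genes and near that of the genes with a mean signal of at least 5. The lists were not filtered at that level, so the second comparison is not like for like. Of 10 genes for transcription and replication of mitochondrial DNA, 6 fell and 1 rose in TDCIPP and 5 fell and 1 rose in DMSO embryos, with the mitochondrial RNA polymerase gene polrmt at -2.23 and -1.96. Mitoribosomal proteins with other symbols (5 genes) had 3 falls and 1 rise in each treatment, the falls being ptcd3, chchd1 and aurkaip1 and the rise gadd45gip1.

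Cytosolic ribosomal proteins, which build the ribosomes of the cytoplasm, moved the other way. Of 65 such genes, 60 rose and 1 fell in TDCIPP embryos and 60 rose and 2 fell in DMSO embryos, with medians of 0.73 and 0.81. Over all genes, 17.0% rose in TDCIPP and 16.1% in DMSO embryos. The gene rpl30 gave 1.32 in TDCIPP and 1.44 in DMSO (limma adjusted p = 7.47e-08 and 2.84e-08). Subunits of the respiratory chain encoded in the nucleus (89 genes) were mixed, with 45 falls and 5 rises in TDCIPP and 42 falls and 5 rises in DMSO embryos, and medians of -0.24 in each. The shares that fell, 50.6% and 47.2%, were above the 32.5% and 33.0% of all genes. They were near the 50.2% and 50.6% of genes with a mean signal of at least 5, a level at which this list was not filtered. Of the 8 genes encoded by mitochondrial DNA itself, whose mRNAs the mitoribosome translates, 8 rose in TDCIPP and 6 in DMSO embryos, and none fell (medians 0.51 and 0.59). The differences between these lists and the mitochondrial ribosomal proteins were not tested. Maternal oocyte transcripts, such as btg4 (-2.97 in TDCIPP and -3.05 in DMSO), fell over the same interval with medians of -2.08 and -2.22, and their part in the change of the members was not tested.

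**Figure D3:**
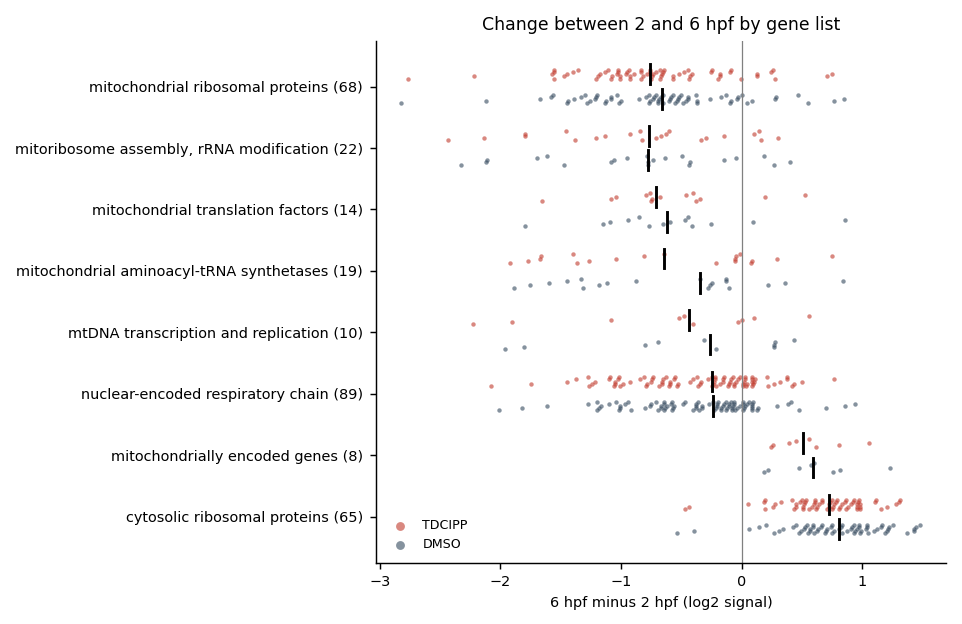
Change between the stages, 6 hpf minus 2 hpf in log2 signal, of each gene in 8 lists (number of genes in brackets), in TDCIPP (red, upper) and DMSO (dark, lower) embryos. Points are genes and black bars are medians. The mitochondrial ribosomal proteins have medians of -0.76 in TDCIPP and -0.66 in DMSO, and the cytosolic ribosomal proteins 0.73 and 0.81.

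At 6 hpf, none of the mitochondrial ribosomal protein transcripts was called as different with TDCIPP (limma, lowest adjusted p of the 68 = 0.681). The share called was 0% of all genes and of all clusters too, while 52 clusters, none of them a member, were called with the pool as a random block and 2 by the methods' test. The random block put the correlation of the 2 arrays of a pool, beyond their group mean, at 0.0603. It therefore counted them nearly as separate replicates. Signals were higher with TDCIPP for 31 members and lower for 37, with a median difference of -0.01, beside 0.02 over all genes. Over all genes 54.91% were higher, and over all clusters 49.77%. An unadjusted p under 0.05 was found for 4 members, or 5.88%, against 5.36% of all genes and 5.48% of all clusters, and for 5 members by the methods' test on the same pool means, none of them after adjustment. Pools of the treatments did not overlap for 7 members, 1 higher and 6 lower, which is 10.3% against 11.7% of all genes and 11.0% of all clusters. By direction, 7.26% of genes and 5.46% of clusters were higher and 4.41% of genes and 5.50% of clusters lower. The 95% intervals of the differences had a median half-width of 0.26, and for 57 of the 68 members the interval lay within 0.5 log2 units of 0.

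The member nearest to the threshold was mrpl52, a mitochondria-specific protein of the large subunit measured by a dim cluster. It had 4.14, 4.08 and 4.07 in TDCIPP pools, against 4.56, 4.41 and 4.52 in DMSO pools at 6 hpf. All TDCIPP pools were below all DMSO pools, by -0.40 (standard error 0.10, 95% interval -0.62 to -0.18, limma adjusted p = 0.681). At 2 hpf the signals were 4.10, 4.16 and 3.66 in TDCIPP and 3.76, 4.09 and 3.99 in DMSO pools, which overlapped.

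Of the small subunit, mrps31, also mitochondria-specific, came closest. It had 6.20, 6.27 and 6.32 in TDCIPP pools, against 6.59, 6.51 and 6.53 in DMSO pools, a difference of -0.28 (standard error 0.09, limma adjusted p = 0.829). The homolog of bacterial L36, mrpl36, had 5.99, 6.10 and 6.02 in TDCIPP pools, against 6.20, 6.28 and 6.39 in DMSO pools, a difference of -0.25 (adjusted p = 0.885). In both genes the pools did not overlap, but neither passed. For mrpl13 (-0.21), mrps14 (-0.21) and mrpl22 (-0.17) the TDCIPP pools were also wholly below the DMSO pools.

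On the higher side, 2 of the 3 stalk genes had the lowest p. mrpl12, the homolog of bacterial L7/L12, had 4.64, 4.88 and 4.74 in TDCIPP pools, against 4.50, 4.55 and 4.48 in DMSO pools at 6 hpf. The cluster of mrpl12 was thus dim at 6 hpf, near the array medians of 4.472 to 4.543. Its pools did not overlap, with a difference of 0.25 (standard error 0.10, 95% interval 0.02 to 0.48, limma adjusted p = 0.898). mrpl10, which anchors the stalk, had 5.80, 6.00 and 5.87 in TDCIPP pools, against 5.92, 5.48 and 5.66 in DMSO pools, which overlapped (difference 0.20, adjusted p = 0.951). The other stalk gene, mrpl11, averaged 5.60 ± 0.15 in TDCIPP and 5.60 ± 0.16 in DMSO pools. Next were mrpl35 (0.24), mrpl9 (0.13) and mrpl49 (0.13), each with overlapping pools. These small differences moved with single pools. When a pool was left out, mrpl35 ranged over 0.0524 to 0.4606 and mrpl10 over 0.1030 to 0.3209, with the lowest value without replicate 2 and the highest without replicate 1 of DMSO at 6 hpf. In the same 2 leave-outs mrpl9 had 0.0551 and 0.2004, and mrpl49 had 0.0508 without replicate 2 of TDCIPP and 0.0644 without replicate 3 of DMSO. The difference of mrpl35 turned to -0.08 when array 1 of each pool was read alone.

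**Figure D4:**
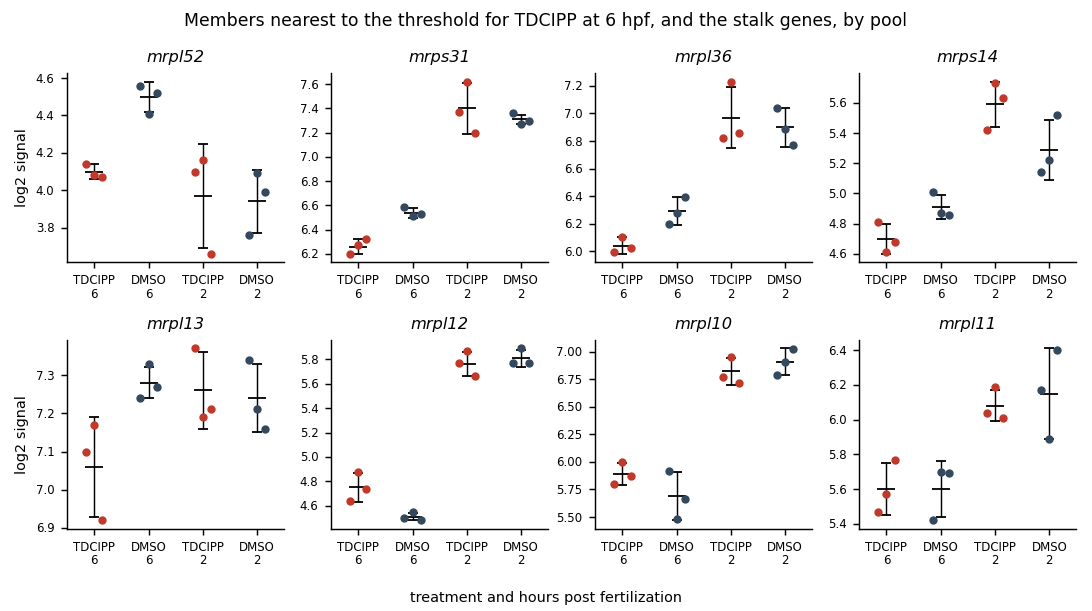
Log2 signal of each pool (points) with the mean and SD of the 3 pools (black) for the 5 members lowest in p on the lower side for TDCIPP against DMSO at 6 hpf and for the 3 stalk genes, in TDCIPP (red) and DMSO (dark) embryos at 6 and 2 hpf. Each gene has an axis of its own. At 6 hpf the TDCIPP pools of mrpl52 lie between 4.07 and 4.14 and its DMSO pools between 4.41 and 4.56.

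At 2 hpf, no member was called as different with TDCIPP either (limma, adjusted p = 1 for each member, with 0% of all genes and of all clusters called). Signals were higher with TDCIPP for 50 of the 68 members and lower for 18, but by little, with a median of 0.04 beside 0.01 over all genes. This count leaned on 1 pool, replicate 2 of TDCIPP at 2 hpf, in which 55 members were above the mean of the stage. Without that pool, 39 members were higher and 29 lower, with a median of 0.01. Over all genes 52.73% were higher with TDCIPP at 2 hpf, and over all clusters 48.35%. Outside the mitoribosome, 51 of 65 cytosolic ribosomal protein genes and 62 of 89 nuclear respiratory chain genes were higher. Whether the counts of these 2 lists also leaned on 1 pool was not examined. At 6 hpf, 14 of the 65 and 50 of the 89 were higher with TDCIPP.

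The only member with an unadjusted p under 0.05 at 2 hpf was mrps14, the homolog of bacterial S14, which is 1.47% of the members against 2.05% of all genes and 2.77% of all clusters. It had 5.42, 5.73 and 5.63 in TDCIPP pools, against 5.14, 5.22 and 5.52 in DMSO pools, which overlapped (difference 0.30, standard error 0.13, limma adjusted p = 1). The methods' test gave no member at that level. mrpl15 was the only member whose pools did not overlap at 2 hpf, with TDCIPP higher, against 2.93% of genes and 3.10% of clusters that were higher and 3.14% and 4.29% that were lower without overlap, or 6.06% of genes and 7.39% of clusters in all. It had 7.98, 8.10 and 8.01 in TDCIPP pools, against 7.97, 7.68 and 7.83 in DMSO pools (difference 0.20). Next on the higher side was mrpl41 (0.19). Without replicate 2 of DMSO at 2 hpf, mrpl41 had 0.0771 and mrpl15 had 0.1298. On the lower side were mrpl10 (-0.09), mrpl22 (-0.14) and mrpl33 (-0.08), and mrpl22 turned to 0.07 without that DMSO pool. When a pool was left out, mrpl10 ranged over -0.1569 to -0.0323 and mrpl33 over -0.1414 to -0.0407. The 95% intervals had a median half-width of 0.25, and for 65 members they lay within 0.5 log2 units of 0.

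**Figure D5:**
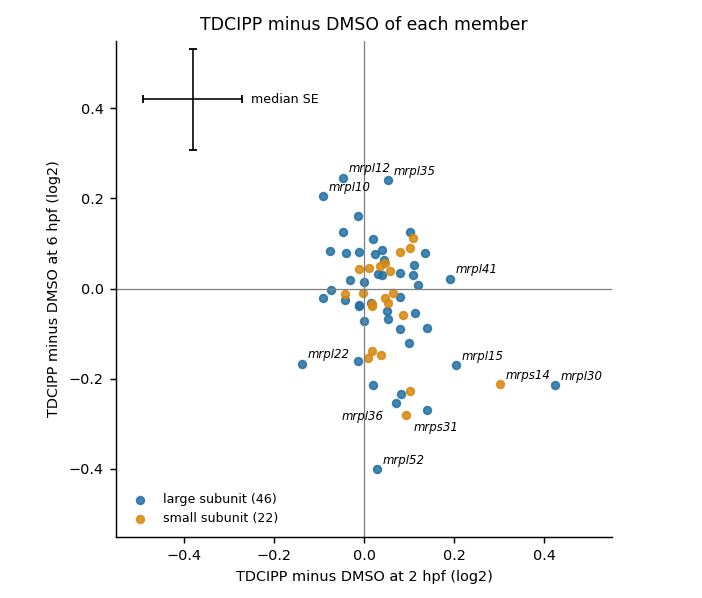
TDCIPP minus DMSO in log2 signal at 6 hpf (vertical) against 2 hpf (horizontal) for the 68 members, coloured by subunit, with the median standard error of each axis drawn as a cross. Most points lie close to 0 on both axes, with mrps14 at 0.30 and -0.21, and no point passed an adjusted p of 0.1 at either time.

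Whether the TDCIPP difference itself differed between the stages was tested in a fit of all 12 pools. No member passed (limma, adjusted p = 0.9998 for each, with 0% of all genes and of all clusters called). An unadjusted p under 0.05 was found for 5 members, or 7.35%, against 3.66% of all genes and 4.32% of all clusters. mrps14 had the lowest p, with an effect of -0.21 at 6 hpf and 0.30 at 2 hpf, a difference of -0.51 (standard error 0.17). The others were mrps31 (-0.37), mrpl52 (-0.43), mrpl15 (-0.37) and, in the other direction, mrpl12 (0.29). Next on that side were mrpl10 (0.29) and mrpl33 (0.16). Of the 68 members, 31 had a TDCIPP effect of the same sign at 6 and 2 hpf.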

How the data were processed

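RNA of 12 pools, 3 in each of the 4 groups, was run on 24 arrays. The authors labelled it after priming with random primers and deposited log2 signals for 75212 rows, processed with RMA in Affymetrix Expression Console, with versions not given in the sources used here. The submitters' notes name the genome build GRCz10.

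The 13972 rows below the first cluster ID of the study's supplementary table carry no gene and were not tested, which left 61240. The 805 rows with several symbols, 8 of them with an mrps or mrpl symbol, were not named. The 2 arrays of a pool were averaged as technical repeats. TDCIPP and DMSO were compared within each time point, and stages and the difference of effects in a fit of all pools, with limma 3.58.1 in R 4.3.3 (lmFit, eBayes, two-sided). The "methods' test" is the analysis of variance named in the study's methods, run on the same pool means. Fits were tested on simulated data. Pools came from separate beakers, and labels do not say more about their independence. Precision is limited by how many arrays and pools there were.

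Members and lists were chosen with earlier results of these data known. Named members are the 5 (at 6 hpf) or 3 (at 2 hpf and for the difference) with the lowest p per direction, the 6 per direction with the largest DMSO change among those called in both treatments (4 rose), the genes of the functional sites, and those with several rows. In lists, genes with the lowest p were named.

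The following were tried as alternatives: a block for replicate number, a random effect of pool, either array alone, trend and robust eBayes, other normalizations, filters, row choices, the methods' test, a shared spread, a threshold of 0.05 and leaving out each pool. Centring on the median over genes was added after seeing the data. Deviations of same-numbered TDCIPP and DMSO pools had r = 0.113 to 0.350 at 2 hpf and 0.099 to 0.219 at 6 hpf. Over time r was -0.034 to 0.140. Labels do not say that numbers pair the samples. The main fits did not pair them at either stage, and the block for replicate number was run only as an alternative. Array batches are not given in the sources used here.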

Additional observations from a re-analysis of the deposited data

How the results depend on the processing

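No member was called for TDCIPP against DMSO at 6 hpf, at 2 hpf or for the difference of the effects under any alternative run. Over all clusters, the pool as a random block called 52 at 6 hpf and 0 at 2 hpf, and the methods' test, as run here on pool means, called 2 and 0. At 6 hpf the random block counted the 2 arrays of a pool nearly as separate replicates. With the replicate block, the stage counts were 53 falls and 4 rises in TDCIPP embryos, against 54 and 4 in the main fit. In DMSO embryos they were 51 and 6, as in the main fit. Falls numbered 50 to 60 in TDCIPP and 49 to 54 in DMSO embryos over all alternatives. Rises in TDCIPP embryos numbered 2 with array 2 of each pool alone, with arrays centred on their medians and at an adjusted p under 0.05, and 2 to 5 when a pool was left out (2 without replicate 1 or 2 of TDCIPP at 2 hpf or replicate 2 or 3 of TDCIPP at 6 hpf). The median stage change in TDCIPP embryos was -0.87 with array 1 of each pool alone, -0.90 with arrays centred on their medians and -0.68 with arrays centred on the median over genes, a choice made after seeing the data. In DMSO embryos it was -0.79 and -0.55 with these centrings and -0.58 after quantile normalization again. Centring on medians moved the median of all clusters to -0.11 in TDCIPP and DMSO embryos, against 0.03 and 0.02 as deposited, and the median over genes moved it to 0.12 and 0.13. The rise of mrpl58 in DMSO embryos was not called with array 1 alone (0.11), after quantile normalization again (0.22), with arrays centred on their medians (0.15), without replicate 1 or 2 of DMSO at 2 hpf or replicate 2 or 3 of DMSO at 6 hpf (limma adjusted p = 0.1288, 0.2617, 0.2194 and 0.181), and at its main value with trend and robust options (adjusted p = 0.120), over all deposited rows (0.103) or at a threshold of 0.05. Directions turned for mrpl35 at 6 hpf (-0.0822 with array 1 alone) and mrpl22 at 2 hpf, which ranged over -0.3224 to 0.0695 when a pool was left out (highest without replicate 2 of DMSO). The causes were not tested. With 3 pools a group, the 95% interval of a TDCIPP difference at 6 hpf reached 0.26 log2 units to either side at the median member. It is not adjusted for the number of clusters, and a call needed a larger difference: mrpl52, at -0.40, was not called.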
